A study of Saccharomyces cerevisiae with 78 samples.

Results

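The genes described here are 10 regulators of the budding yeast division cycle, chosen by their locus tags out of the 5229 gene rows of the count files. They are the G1 cyclin genes CLN1 (YMR199W), CLN2 (YPL256C) and CLN3 (YAL040C), the S phase cyclin genes CLB5 (YPR120C) and CLB6 (YGR109C), the mitotic cyclin genes CLB1 (YGR108W) and CLB2 (YPR119W), the transcription factor gene SWI5 (YDR146C), CDC20 (YGL116W) and SIC1 (YLR079W). All 10 passed the filter on low counts, and no other row carried one of these tags. The series measured polyadenylated RNA of the haploid strain BY4742 of Saccharomyces cerevisiae, grown in galactose medium without uracil and harvested in mid-log phase. Cells of 25 groups carried a plasmid with a fusion gene, made of joined yeast gene parts and named by a plate code, and cells of the last group carried the control plasmid p416-GAL1 with no fusion. Each of the 26 groups had 3 libraries that the labels call biological replicates, 78 in all. The labels do not name the fused genes, so whether a regulator described here is part of a construct was not tested.

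Cyclins are the changing partners of a constant kinase, Cdc28, and each kind of cyclin is made in its own part of the cycle. Cln3 starts the programme in G1, Cln1 and Cln2 drive budding and the commitment to divide, Clb5 and Clb6 start DNA replication, and Clb1 and Clb2 drive mitosis. Cdc20 activates the ubiquitin ligase that opens anaphase and begins the destruction of the mitotic cyclins, Swi5 enters the nucleus as mitosis ends and switches on genes of the next G1, and Sic1 inhibits the Clb kinases until S phase. In an unsynchronised culture such as these, fewer cells in a phase and less RNA per cell cannot be told apart.

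The libraries held 10773809 to 18981572 counts each (median 14019225), and the 10 genes held 0.0837% to 0.208% of the gene counts. By the library names, replicate 3 of every group belongs to a resubmitted set and the other two replicates to a first set, and this set was a term of the fit. Letters in the library names further split the first set from A to E and the resubmitted set from A to C, and in both sets the only clone that shared the control's letter was M497-F10. The names of 3 libraries disagree with their group, with a different plasmid for control replicate 3 and a different plate code for replicates 1 and 2 of M492-E01. Of the markers of mating type alpha, that of BY4742, MF(ALPHA)1, MF(ALPHA)2, STE3 and SAG1 had median levels of 24.8 to 377 CPM over the libraries. Of the markers of mating type a, STE2, BAR1 and STE6 had medians of 11.1 to 55.4 CPM, and MFA1, MFA2 and AGA2 were not analysed here.

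Per kilobase of coding length, CLN2 and SIC1 were the most abundant of the 10 transcripts and CLB6 the least. The median over the 26 group means was 183 CPM per kb for CLN2, 165 for SIC1, 122 for CLB1, 119 for CLN1, 103 for CLN3, 82.2 for CLB2, 72 for SWI5, 46.7 for CDC20, 25.4 for CLB5 and 10.9 for CLB6. The ratio of the highest to the lowest group mean was 3.61 for CLB1, 3.30 for CLB2, 2.97 for CLN1, 2.88 for SWI5, 2.78 for CLB6, 2.47 for CLN2, 2.19 for CLB5, 1.91 for CDC20, 1.40 for CLN3 and 1.30 for SIC1. The mitotic cyclins thus spread widest over the groups, and CLN3 and SIC1 least. With the groups in the order of their mean CPM, the libraries of neighbours overlapped in all 25 steps for 6 genes. The steps without overlap in CPM were M495-D09 above M491-E09 and M491-D07 below M495-C02 for CLN2, M492-C04 below M491-C07 for CLB1, M491-C07 below M491-D07 for CLB6 and M495-F02 below M491-C07 for SWI5. After levels were adjusted for the library set, the CLN2 step at M491-D07 and the CLB1 step remained without overlap. Such steps were not counted for other genes, so no background share stands beside them.

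A difference among the 26 groups passed edgeR's quasi-likelihood test with Benjamini-Hochberg adjustment for 9 of the 10 genes, against a background of 83.2% of the 5212 genes tested. CLN3 did not pass (adjusted p = 0.0638). CLN2 had the largest F statistic of the 10, 23.5, which ranked 66 among all genes tested (adjusted p = 2.01e-19). Against the control, 34 of the 250 pairs of a gene and a clone passed, or 13.6%, with 4 higher and 30 lower. Over all genes tested 10.6% of such pairs passed, 5.87% higher and 4.76% lower, so the share lower, 12%, was above that background and the share higher, 1.6%, below it. All 25 comparisons share the same 3 control libraries. In the first set the control and M497-F10 alone hold letter E. Median levels in that letter were 292 CPM for CLB1, 183 for CLB2 and 215 for SWI5, the highest of letters A to E. That letter also had the highest median for every other gene but CLN2 (295 CPM, against 312 in letter A). M497-F10 had 0 calls against the control, and its CLB1 log2 change, resubmitted over first, was -1.52, beside -1.55 in the control. The part of the letter in the lower calls was not tested. Without a term for the library set 15 of the 34 calls remained, 1 of them in M492-C04, 6 in M495-F02, 4 in M491-C07 and 0 in M491-C06. In 16 clones no gene of the 10 was called, and 6 of the 34 changes reached 2-fold. Against the mean of the other 25 groups, 48 pairs passed, or 19.2%, with 21 higher and 27 lower, over a background of 13% of all such pairs, 6.68% higher and 6.29% lower. Among them 3 higher calls were in M492-E11, 3 in M497-F10, 2 in M492-E01 and 1 in M493-C02, and 1 lower call was in M495-C02. None of these clones had a call against the control. The share of all genes called against the other groups in each of them is not reported here, so their calls are not described further.

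**Figure D1:**
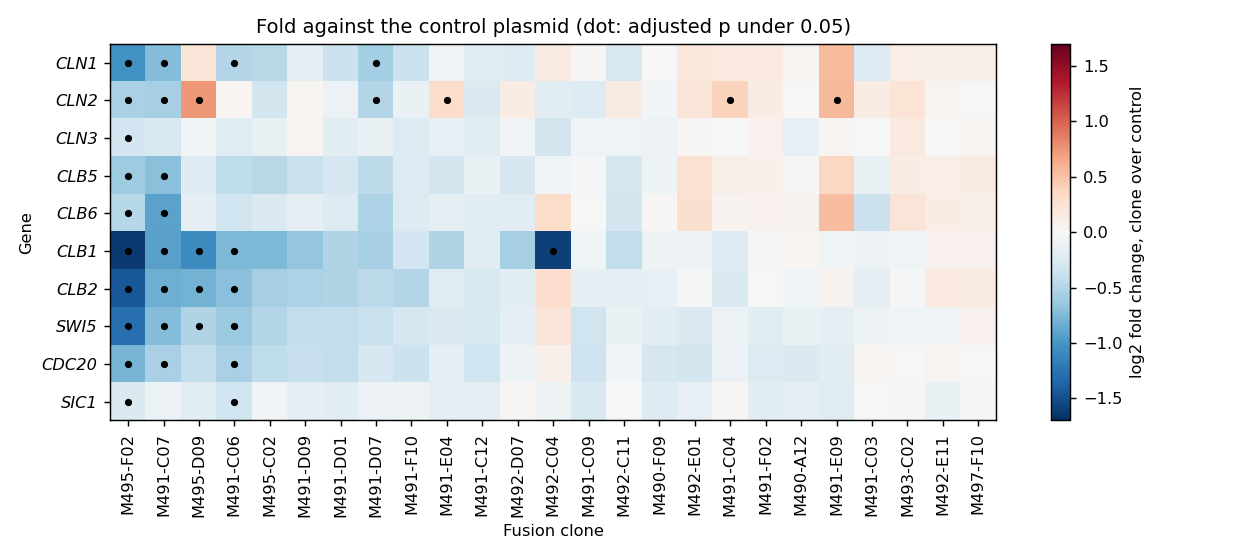
Log2 fold change of each of the 10 genes (rows) in each of the 25 clones (columns) against the control plasmid, as colour, with a dot where the adjusted p was under 0.05. Clones run by the mean of CLB1, CLB2, SWI5 and CDC20; the 34 dots lie in 9 clones, 10 of them in M495-F02 and 8 in M491-C07.

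Among the G1 cyclin genes CLN2 passed in the most clones, 7, with 4 higher and 3 lower, each with the same direction in both library sets. M495-D09 had 486, 494 and 506 CPM of CLN2 in replicates 1 to 3, against 281, 289 and 319 CPM in the control. These 3 libraries lay above all 75 others. The log2 fold change was 0.74 (SE 0.091, adjusted p = 1.58e-08), with 0.67 in the resubmitted library and 0.78 in the first set. Against the other groups that share its letter, it was 0.60 in the resubmitted set and 0.85 in the first set. CLN2 also rose in M491-E09, with 478, 442 and 374 CPM (log2 fold change 0.55, adjusted p = 3.74e-05). There it was 0.23 in the resubmitted library and 0.69 in the first set, and the difference between sets passed (adjusted p = 7.23e-04). Within its letter it was 0.12 in the resubmitted set, inside the range of the other groups, and 0.70 in the first set, above it. It rose in M491-C04, with 387, 390.1 and 381 CPM (0.38, adjusted p = 0.00232), and in M491-E04, with 382, 352 and 363 CPM (0.31, adjusted p = 0.0270). In all 4 clones no library overlapped the control. The M491-E04 call was lost without control replicate 1 or 2 or its own replicate 1, with log2 fold changes down to 0.25 and adjusted p up to 0.119.

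CLN2 fell in M491-C07, M495-F02 and M491-D07. It had 194, 191 and 216 CPM in M491-C07, which is -0.56 on the log2 scale (SE 0.0916, adjusted p = 5.65e-06). M495-F02 had 189.6, 176 and 240.03 CPM, also -0.56 (adjusted p = 9.4e-07), and M491-D07 had 208, 199 and 221 CPM, or -0.50 (adjusted p = 5.7e-04). Every one of these 9 libraries was below all 3 control libraries. In M491-D07 only 0.652% of all genes differed from the other groups, and CLN2 was among them, at -0.53 (adjusted p = 5.89e-07). Of the 10 genes 2 were called lower there against the control, CLN1 being the second, against a background of 3.18% lower. CLN1 had 123, 120.3 and 157 CPM in M491-D07, against 225, 202 and 175 CPM in the control (-0.58, adjusted p = 0.0311), at -0.15 in the resubmitted library and -0.81 in the first set. That call was lost without replicate 1 or 2 of either group, with adjusted p up to 0.157.

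**Figure D2:**
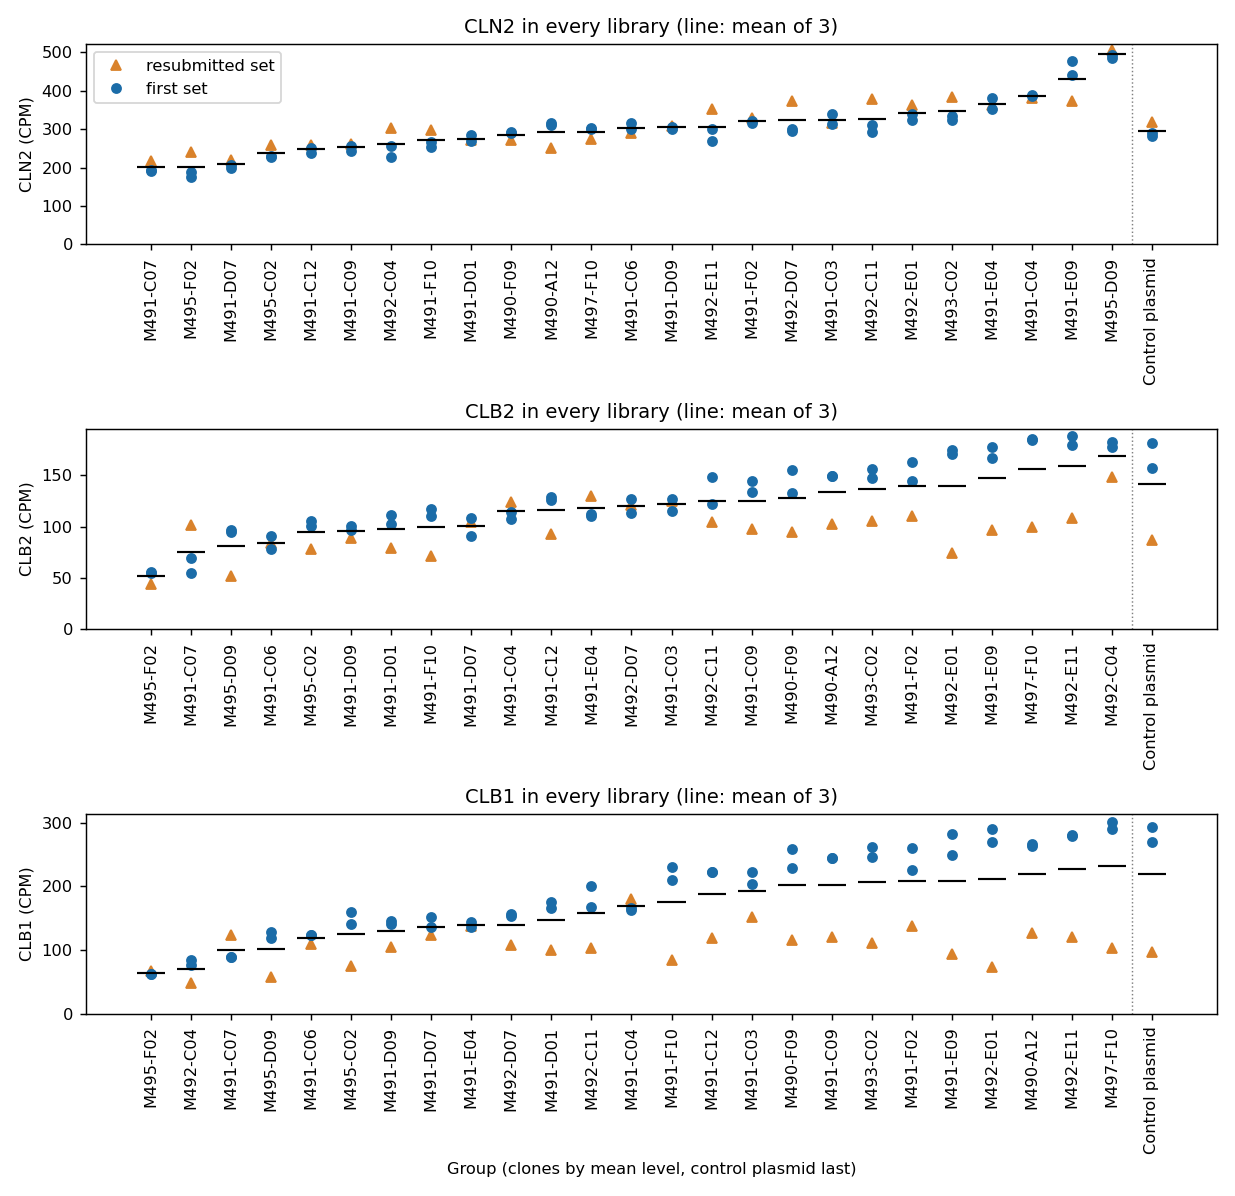
CLN2, CLB2 and CLB1 levels in CPM (vertical axes) in each library of the 26 groups, clones ordered by their mean of 3 (black line) and the control plasmid at the right; triangles are the resubmitted set and circles the first. CLN2 in M495-D09 lies at 486 to 506 CPM in both sets, while CLB1 in the control is 96.4 CPM in the resubmitted library and 270.4 and 294 CPM in the first set.

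CLN1, the close relative of CLN2, passed in 4 clones, all lower. M495-F02 had 104, 97.8 and 93.2 CPM, against the 175 to 225 CPM of the control, with no overlap. The log2 fold change was -1.03 (SE 0.175, adjusted p = 1.7e-06), at -0.91 in the resubmitted library and -1.08 in the first set. M491-C07 had 99.2, 103 and 158 CPM, or -0.73 (adjusted p = 0.00119). The highest CLN1 mean, 292 CPM in M491-E09, held 171 CPM in its resubmitted library and 360.3 and 343 CPM in its first-set libraries. That gene was not called against the control there (0.53, adjusted p = 0.0639). CLN3 passed only in M495-F02, with 140.2, 128 and 185 CPM against 195, 205 and 165 CPM in the control (-0.32, adjusted p = 0.0378). Its resubmitted library lay above the resubmitted control (0.16) and its first set below (-0.58), and the call was lost without replicate 1 or 2 of either group, with adjusted p up to 0.222. Over the groups CLN3 means ran from 151 to 211 CPM with a median of 179 CPM.

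The S phase cyclin genes CLB5 and CLB6 were called against the control in 2 clones each, M491-C07 and M495-F02, all lower. CLB6 in M491-C07 had 7.27, 6.60 and 7.96 CPM, against 16.5, 15.5 and 9.33 CPM in the control. Its libraries were the lowest of their sets, and the log2 fold change was -0.91 (SE 0.22, adjusted p = 0.00139). CLB5 in the same clone had 19.8, 21.7 and 22.8 CPM, against 42.4, 41.5 and 24.1 CPM in the control (-0.71, adjusted p = 0.00268). In M495-F02 CLB5 averaged 23.0 ± 1.59 CPM (SD, n = 3), against 36.0 ± 10.3 CPM in control cells (SD, n = 3), and fell by 0.61 on the log2 scale (adjusted p = 0.00408). In the resubmitted library it was level with the resubmitted control, at -0.02 on the log2 scale, and the first set was at -0.89, a difference between sets that passed (adjusted p = 2.99e-04). The control's own 3 values thus spread more than those of either clone.

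M491-E09 stood at the high end for both S phase cyclins, in the first set alone. Its CLB5 level was 21.1 CPM in the resubmitted library and 62.2 and 57.7 CPM in the first-set libraries, and its CLB6 level was 10.3 CPM in the resubmitted library and 24.9 and 25.5 CPM in the first set. For CLN1, CLB5 and CLB6 its resubmitted library ranked 15, 25 and 16 of 26, and its first-set libraries were the highest of their set. Against the other groups CLN1, CLN2, CLB5 and CLB6 were called higher in M491-E09, 4 of the 10 over a background of 5.74% higher, at 0.69, 0.56, 0.52 and 0.66 on the log2 scale. Only CLN2 was called against the control. Of 23 other G1/S genes, targets of the factors SBF and MBF, 3 rose there against the control (background 2.65% higher) and 20 did not pass, with a median log2 fold change of 0.21 against 0.01 over all genes tested. The 3 were the cyclin genes PCL2 (0.81) and PCL1 (0.59) and the wall protein gene SVS1 (0.44).

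The mitotic cyclin genes stood near opposite ends of their ranges in M492-C04. CLB1 there had 84.7, 77.1 and 47.9 CPM, against 294, 270.4 and 96.4 CPM in the control. It was the only 1 of the 10 genes called against the control in this clone, where 4.09% of all genes were lower. Every M492-C04 library was below every control library, and the log2 fold change was -1.59 (SE 0.275, adjusted p = 2.81e-05), at -1.01 in the resubmitted library and -1.80 in the first set. Against the other groups of its letter it was -0.97 in the resubmitted set and -1.40 in the first set. CLB2 in the same libraries had 182, 177 and 148 CPM, the highest mean of the 26 groups at 169 CPM. CLB2 was not called against the control (0.29, adjusted p = 0.526), but it was called higher against the other groups (0.59, SE 0.135, adjusted p = 6.92e-04).

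The ratio of CLB1 to CLB2, per kilobase, set M492-C04 apart in every library. It was 0.484, 0.454 and 0.337 in replicates 1 to 3. It ran from 0.933 to 1.61 in the 25 other resubmitted libraries and from 1.17 to 2.05 in the 50 other first-set libraries. The clone thus had less CLB1 than CLB2 transcript per length in all 3 libraries. CLN1 stood high relative to CLN2 there, with ratios of 0.846, 0.890 and 0.823, against medians of 0.586 in the resubmitted set and 0.622 in the first. This ratio did not set the clone apart in every library. In the first set M491-C09 replicate 1 had 0.858, M497-F10 replicate 1 0.845 and control replicate 1 0.799. In R64, CLB1 is the chromosomal neighbour of CLB6 on chromosome VII, and CLB6 in M492-C04 was 17.2, 15.9 and 17.7 CPM, called higher against the other groups (0.43, adjusted p = 0.0197).

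**Figure D3:**
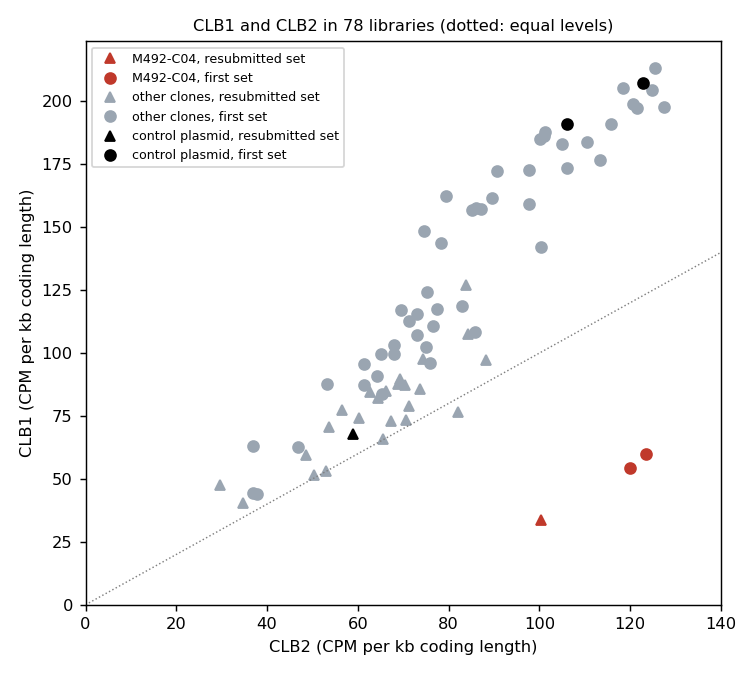
CLB1 (vertical) against CLB2 (horizontal) in each of the 78 libraries, in CPM per kb of coding length, with a dotted line at equal levels. The 3 M492-C04 libraries (red) lie far below the line at ratios of 0.337 to 0.484, while the other libraries have ratios of 0.933 to 2.05.

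The other late regulators went with CLB2 in M492-C04, not with CLB1. SWI5 had 243, 231 and 142 CPM and CDC20 had 123, 125 and 83.4 CPM, each the highest mean of the 26 groups. Against the other groups SWI5 was higher by 0.51 (adjusted p = 1.3e-04) and CDC20 by 0.35 (adjusted p = 0.0105), and neither was called against the control. In all, 4 of the 10 genes were called higher and 2 lower against the other groups, over backgrounds of 9.32% higher and 13.5% lower in this clone. The second lower gene was CLN2 (-0.19, adjusted p = 0.0286). Of 16 other G2/M genes, the cluster of genes transcribed with CLB2, none was called against the control, and their median was 0.09. Of 14 M/G1 genes, transcribed as mitosis ends and G1 begins, 4 fell and 10 did not pass. They were AMN1 (-0.81), an inhibitor of mitotic exit, RME1 (-0.38), DSE3 (-0.57) and PIR1 (-0.49). All 4 alpha mating type markers fell in this clone too, among them MF(ALPHA)1 by 1.45 on the log2 scale. All 4 were also called lower in M491-C04, M491-E04, M491-E09 and M495-D09, while in M491-C07 1 rose and 0 fell. In either direction 15%, 7.64%, 3.93%, 13.4% and 24.1% of all genes were called in these 5 clones, in that order. The fall was not particular to them, since 3 of the 4 were called lower in M490-A12 and M491-C06 and fewer in several other clones. In M490-A12 and M491-C06 22.4% and 20.1% of all genes were called. For the mean of the clones 2 of the 4 were called lower, with a median of -0.32.

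In M495-F02 all 10 genes fell, in a clone where 24.7% of all genes tested were called lower and 50.3% were called in either direction. CLB1 had 62.5, 62.6 and 67.4 CPM, against 294, 270.4 and 96.4 CPM in control cells (log2 fold change -1.62, SE 0.276, adjusted p = 1.87e-06). CLB2 had 55.7, 54.6 and 43.7 CPM, against 181, 157 and 86.9 CPM (-1.44, SE 0.209, adjusted p = 6.2e-08). SWI5 had 79.1, 73.9 and 61.2 CPM, against 203, 226 and 107 CPM (-1.28, SE 0.157, adjusted p = 8.73e-10). For all 3 genes the clone and control libraries did not overlap, and nor did they for CLN1, CLN2, CLB5 and CDC20. They overlapped for CLN3, CLB6 and SIC1. Overlap was not counted for other genes, so no background share stands beside it. CDC20 fell by 0.80 (adjusted p = 1.88e-05), CLB6 by 0.49 and SIC1 by 0.24 on the log2 scale. The resubmitted library alone had smaller differences from the resubmitted control, at -0.52 for CLB1, -0.99 for CLB2, -0.81 for SWI5, -0.16 for CDC20, -0.07 for CLB6 and -0.02 for CLB5, and was above it for CLN3 (0.16) and SIC1 (0.17). For 7 of the 10 genes a test of the difference between sets passed, over a background of 32.6% in this clone. The calls of CLB6, CLN3 and SIC1 were lost without replicate 1 or 2 of either group, and that of CLB6 also without M495-F02 replicate 3. Their adjusted p then reached 0.194 for CLB6, 0.222 for CLN3 and 0.159 for SIC1.

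The G2/M, G1/S and licensing genes were mostly lower in M495-F02 as well. All 16 G2/M genes fell, with a median log2 fold change of -0.88 against 0.01 over all genes tested. HOF1 (-1.48), which acts in cytokinesis, the septum enzyme gene CHS2 (-1.21) and the kinase gene ALK1 (-1.15) were among them. Of 23 G1/S genes 19 fell and 4 did not pass, with a median of -0.59, among them TOS4 (-1.11), PCL1 (-1.06) and SWE1 (-0.82), the kinase that inhibits mitotic Cdc28. All 7 replication licensing genes fell, MCM2 by 0.60 on the log2 scale. Of 14 M/G1 genes CHS1 (0.77) and RME1 (0.63) rose, AMN1 fell (-0.61) and 11 did not pass. FKH1 (-1.27), a forkhead transcription factor gene, fell furthest of 8 cell cycle factor genes, of which 6 fell. Of 15 other cyclins and kinases 6 rose and 4 fell, and CDC28 itself fell by 0.42 on the log2 scale. Of 17 genes of brakes, checkpoint and mitotic exit 2 rose and 10 fell, among them the checkpoint gene BUB3 (-0.76), and of 16 ubiquitin ligase genes 4 rose and 3 fell. HHO1 (-0.74), the linker histone gene, fell.

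M491-C07 had 8 of the 10 genes lower, CLN3 and SIC1 being the others, over a background of 12% lower. CLB1 had 89.0, 89.4 and 124 CPM (-0.92, adjusted p = 0.00862), CLB2 69.2, 54.6 and 102 CPM (-0.83, adjusted p = 0.00175) and SWI5 100.4, 87.9 and 112 CPM (-0.74, adjusted p = 2.56e-04). In each case the resubmitted library was above the resubmitted control and the 2 first-set libraries were far below the control's. CLB1 was at 0.37 on the log2 scale in the resubmitted library and at -1.66 in the first set, and CLB2 at 0.22 and -1.45. Within its letter CLB1 was at -0.03 in the resubmitted set and at -1.18 in the first set. CLN2 was at -0.56 against the control and -0.42 within its letter in the resubmitted set, and at -0.57 and -0.76 in the first set. CLB6 was likewise lowest of its letter in both sets. Against the control CLB6 was at -0.23 in the resubmitted library and at -1.21 in the first set, CLB5 at -0.08 and -1.02, CLN1 at -0.14 and -1.08, and CDC20 at 0.07 and -0.87. The calls of CLB1, CLB2 and CDC20 were lost without M491-C07 replicate 2, and that of CLB1 also without its replicate 1 or control replicate 1. Their adjusted p then reached 0.106 for CLB1, 0.0561 for CLB2 and 0.105 for CDC20. Of the other lists, 20 of 23 G1/S genes, 15 of 16 G2/M genes and all 7 licensing genes were called lower, PCL1 by 0.99 and HOF1 by 1.09 on the log2 scale. As for the lists in the other clones, these calls come from the same fit and control libraries and were not split by library set.

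In M491-C06 6 of the 10 genes were lower, over a background of 8.75% lower. They were CLB1 (-0.76), CLB2 (-0.71), SWI5 (-0.63), CDC20 (-0.56), CLN1 (-0.49) and SIC1 (-0.34), the last with the lowest mean of the 26 groups. SIC1 had 126, 135 and 104 CPM, against 173, 185 and 111 CPM in the control (adjusted p = 0.00347). In the resubmitted library CLB1 was above the resubmitted control (0.18) and CLN1 level with it (0.0011), while CLB2 was at -0.06, SIC1 at -0.08, CDC20 at -0.13 and SWI5 at -0.15 there, as log2 folds. The 6 first-set values lay between -1.19 for CLB1 and -0.45 for SIC1. The test of the difference between sets passed for all 6, over a background of 33.9% in this clone. SWI5 alone kept its call without each library in turn. Without control replicate 1 or 2 or M491-C06 replicate 1 or 2, the CLB1 and CLN1 calls were lost, with adjusted p up to 0.174 and 0.175. That of CLB2 was lost without control replicate 1 or M491-C06 replicate 2 (up to 0.0875), that of CDC20 without M491-C06 replicate 2 (0.0533) and that of SIC1 without control replicate 2 (0.0576).

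M495-D09 joined a high CLN2 with low CLB1, CLB2 and SWI5 against the control. CDC20 was not called there, with 94.9, 100.4 and 43.8 CPM, against 117, 126 and 70.7 CPM in the control. CLB1 had 119, 129 and 57.4 CPM (-1.08, SE 0.269, adjusted p = 0.00326) and CLB2 96.4, 94.9 and 51.3 CPM (-0.81, adjusted p = 0.00357). SWI5 had 154, 158 and 68.6 CPM (-0.50, adjusted p = 0.0182). Of the 10 genes 1 was higher and 3 lower, over backgrounds of 8.04% higher and 5.41% lower. CLB2 was at -0.76 in the resubmitted library and at -0.82 in the first set, SWI5 at -0.65 and -0.46, and CLB1 at -0.75 and -1.19, where the difference between sets passed (adjusted p = 0.0422). Within its letter SWI5 was at -0.62 in the resubmitted set and at -0.05 in the first set, CLB1 at -0.70 and -0.73 and CLB2 at -0.91 and -0.48, all inside the range of the other groups. Its call was lost without control replicate 1 (adjusted p = 0.0514), and the SWI5 call without control replicate 1 or 2 or M495-D09 replicate 3 (adjusted p up to 0.183). Of 16 G2/M genes 13 fell, with a median of -0.44, ALK1 by 0.70 and CHS2 by 0.59 on the log2 scale. Of 23 G1/S genes SVS1 (0.48) and PCL1 (0.56) rose, a share near the 8.04% background higher. The other 21 did not pass, and the median of that list was -0.07. All 4 alpha mating type markers fell, as in M491-C04, M491-E04, M491-E09 and M492-C04. FAR1 (-0.82), the Cdk inhibitor of the mating response, fell too.

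**Figure D4:**
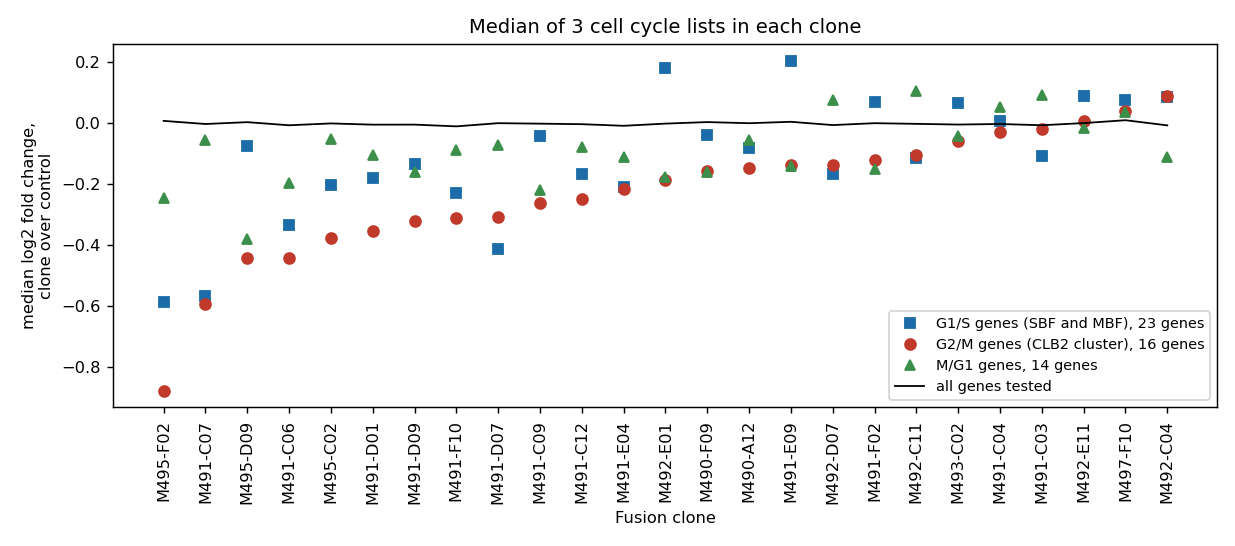
Median log2 fold change against the control (vertical) of 3 lists of cell cycle genes in each clone, ordered by the G2/M list, with the median of all genes tested as a line. M495-F02 lies lowest for the G2/M genes at -0.88, while in M491-E09 the G1/S genes are at 0.21.

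Averaged over the 25 clones, none of the 10 genes passed against the control (edgeR quasi-likelihood test, background 6.33%), and DESeq2 also called 0. That count depended on the library sets, with 9 genes called in the first set alone, 4 with the resubmitted libraries in 2 batches by letter and 2 without control replicate 3. At an unadjusted p under 0.05 there were 4, all lower: CLB1 at -0.44, CLB2 at -0.29, SWI5 at -0.29 and CDC20 at -0.26 on the log2 scale (adjusted p = 0.136, 0.205, 0.0918 and 0.136 in that order). In the fit CLB1 was below the control in 22 of 25 clones, CLB2 in 21, SWI5 in 23, CDC20 in 21 and SIC1 in 21, and CLN2 in 12. By set, CLB1 was below it in 7 clones in the resubmitted set and 24 in the first, CLB2 in 7 and 20 and SWI5 in 9 and 23. CDC20 was below it in 15 and 22, SIC1 in 5 and 24 and CLN2 in 15 and 10. These counts share the control libraries and are not 25 separate results.

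The library sets differed for 8 of the 10 genes, 7 of them lower in the resubmitted set and CLN2 higher, against a background of 84.6%, with 41.4% higher and 43.2% lower. CLB1 averaged 108 ± 29.3 CPM over the 26 resubmitted libraries and 194 ± 69.1 CPM over the 52 first-set libraries (SD), a fold of 0.586 (adjusted p = 1.38e-12). The folds were 0.678 for SWI5, 0.716 for CDC20, 0.740 for CLB5, 0.769 for SIC1, 0.772 for CLB2 and 0.842 for CLB6, and 1.06 for CLN2. SIC1 was lower in the resubmitted library than in both first-set libraries in 26 of 26 groups and SWI5 in 25. CLN1 and CLN3 did not pass. CLB1, SWI5 and CDC20 thus had the folds furthest from 1, and CLN2 the nearest among the 8. Of the lists, 14 of 16 G2/M genes and 13 of 14 M/G1 genes were lower in the resubmitted set, with medians of -0.37 and -0.73.

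For every gene but CLN2 the control's change from the first to the resubmitted set was below that of most clones. Its log2 change, resubmitted over first, was -1.55 for CLB1, -0.96 for CLB2 and -0.69 for SIC1, each the second lowest of 26 groups, with group medians of -0.86, -0.45 and -0.35. For the other genes its rank from the lowest was 3 for SWI5 and CLB6, 4 for CLB5 and CLN3, 6 for CDC20 and CLN1 and 17 for CLN2. For CLB1 the control ranked 19 of 26 in the resubmitted set and 2 in the first, and for SIC1 21 and 2. A test of whether the fold against the control differed between sets, added after the data were seen, passed for 124 of 250 pairs, or 49.6%, over a background of 16.4% of all gene and clone pairs. The fold was higher in the resubmitted set in 117 of the 124. By gene it passed in 19 clones for CLB1 and 3 for CLN2. Of the 34 calls against the control, 26 had the same sign in both sets and 8 did not. Set against the other groups of the same letter, which hold no control, the 34 kept their sign in 31 cases in the resubmitted set and 34 in the first. They lay outside all those groups in 12 cases in the resubmitted set and 24 in the first. These counts are a description only, since the fit that chose the 34 pairs held the same libraries. They were not made for the pairs that were not called or for other genes.

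**Figure D5:**
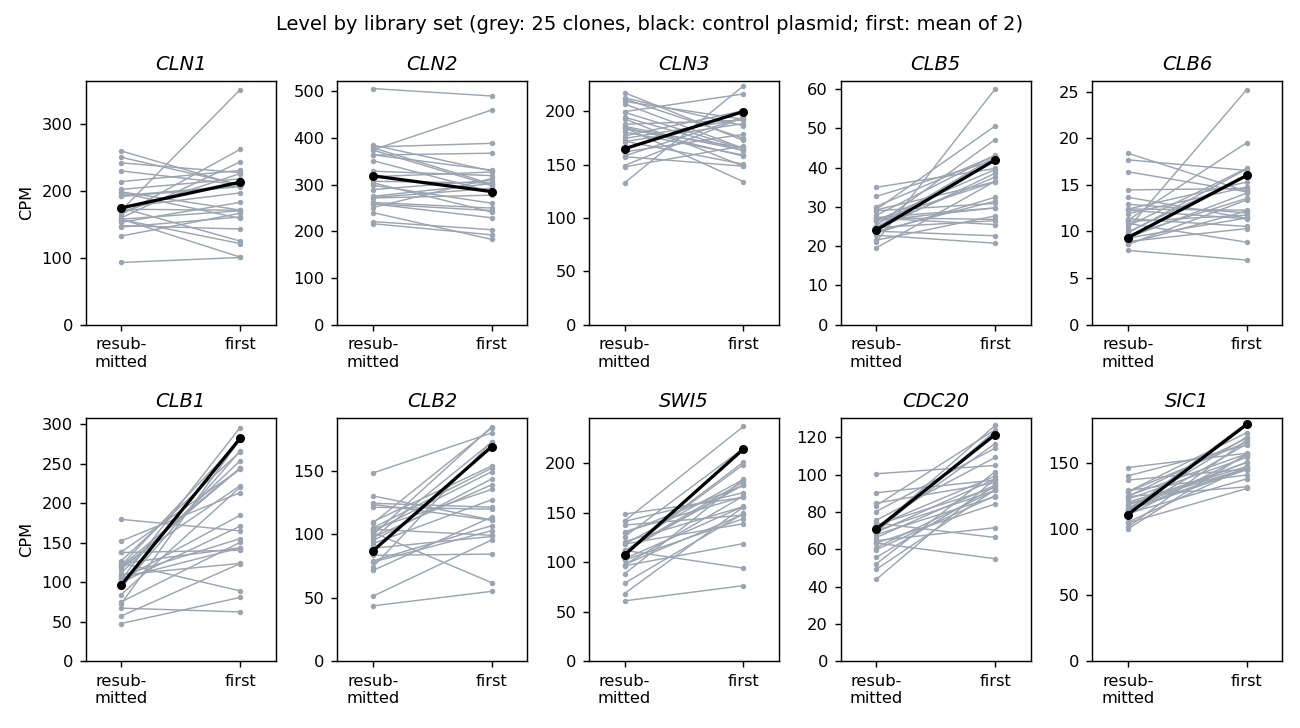
Level of each of the 10 genes in CPM (vertical) in the resubmitted library and in the mean of the 2 first-set libraries, with a grey line for each clone and black for the control plasmid. The control's CLB1 line runs between 96.4 CPM in the resubmitted set and 282 CPM in the first, and SIC1 lines are lower in the resubmitted set in 26 of 26 groups.

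How the 10 genes varied together is described by Pearson's r over the 26 groups, whose points share libraries and depth. SWI5 and CLB2 had r of 0.936 over the resubmitted libraries and 0.942 over the first-set means, and SWI5 and CDC20 had 0.837 and 0.945. CLN1 had r of 0.638 and 0.922 with CLB6 and 0.707 and 0.913 with CLB5. CLB1 and CLB2 had lower values, 0.515 and 0.765, and CLN2 and CLB2 had 0.054 and 0.404. SWI5, CLB2 and CDC20 thus had high values in both sets.

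The genes most like each regulator were taken as those with the highest r over the 26 first-set means, among 4989 genes of at least 10 CPM. For SWI5 they were CHS2 (r 0.985, with 0.882 over the resubmitted libraries), HOF1 (0.982 and 0.880) and TEM1 (0.977 and 0.840), a GTPase gene of mitotic exit. For CLB2 they were the polo kinase gene CDC5 (0.978 and 0.888), ALK1 (0.968 and 0.937) and the phosphatase gene CDC14 (0.958 and 0.570). For CDC20 they were TEM1 (0.966 and 0.915), CHS2 and BUD4. CLB1 was led by SFG1 (0.903 and 0.929), a putative transcription factor gene, followed by SAP190 and GNP1. SFG1 averaged 27.1 ± 4.50 CPM in M492-C04 and 92.1 ± 46.0 CPM in control cells (SD, n = 3 each), a description only, since both groups entered the r that chose it.

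For the G1 and S phase genes, CLN1 was most like CSI2 (0.958, with 0.821 over the resubmitted libraries) and PCL1 (0.947 and 0.843), and CLN2 like TOS6 (0.852 and 0.883) and the kinase gene HSL1 (0.850 and 0.665). CLB5 was most like the cohesin gene MCD1 (0.967 and 0.758) and the mismatch repair gene PMS1 (0.967 and 0.652), and CLB6 like the kinesin gene KAR3 (0.928 and 0.254). CLN3 was most like the forkhead factor gene FKH2 (0.871 and 0.524), FAR1 (0.827 and 0.685) and COG3 (0.82 and 0.0844). SIC1 was most like AIM44 (0.868 and 0.780) and EGT2 (0.862 and 0.885), a Swi5 target that acts in cell separation, followed by WTM2 (0.839 and 0.271).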

How the data were processed

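The authors deposited raw counts, whole numbers for every gene in each of 78 libraries of polyadenylated RNA. Per the labels and the submitters' processing notes, reads were trimmed and deduplicated by molecular identifier by fastp 0.23.1, STAR 2.5.2b did the alignment, featureCounts of Subread 1.5.2 counted unique hits, and the notes name genome build R64. Since the count files place their features on 204 contigs and not on the R64 chromosomes, no coordinates are given. The coding lengths of all 10 members equal those of R64. Counts on an unnamed row of construct sequences (median 0.886%) and on a row named UNDEF (median 2.36%) stayed out of library sizes and tests. The design text speaks of 22 clones and the labels hold 25, all used.

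The quasi-likelihood test of edgeR 4.0.16 (R 4.3.3) was used after TMM scaling and filterByExpr by group. A single model of the 78 libraries held group and library set (51 residual degrees of freedom). It covered 5212 of 5229 genes, and 17 were too low. Benjamini-Hochberg adjustment ran over all genes tested within a comparison, and the threshold was 0.05. CPM values are scaled by TMM, and standard errors (SE) were taken as log2 fold change divided by √F. Log2 folds by library set or letter are ratios of mean CPM, with no test. An exact permutation test of 3 against 3 libraries cannot go below 0.1, so for neighbouring groups overlap is stated. The chi-square per gene between a group's replicates 1 and 2 was 2.07 to 18.1, where sampling noise gives about 1, so none was taken as a repeat. The script was tested on simulated data.

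The members and lists were chosen with earlier results of these data known. All 10 members are named, in the groups where a call against the control passed. With them are the 3 genes most like each by r and up to 4 genes of a list by adjusted p. Calls against the other groups are described for some clones only. Some genes that this rule gives were left out for length. In the G2/M list 1 gene is not reported here. In the histone list HHO1 alone has a row of its own, and of the lists of other cyclins and kinases and of ubiquitin ligases, PHO85, PCL7, CDC27 and CDC4 were not analysed here. The alternatives were a replicate block, no set term, the resubmitted libraries in 2 batches by letter, the first set alone, RLE size factors, no filter, DESeq2 1.42.0, leaving out the 3 M492-E01 libraries, and leaving out each library in turn. With the set removed, replicate 1 minus replicate 2 of each clone was correlated over genes with that of the control. The r was -0.299 to 0.314 (median -0.0148), with 7 of 25 over 0.1, so no common pairing by number was seen. Clones were not compared with each other and replicate 3 could not be checked, so pairing is not excluded.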

Additional observations from a re-analysis of the deposited data

Results flagged for a closer look

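The fold of a clone against the control differed between the resubmitted and the first library set for every one of the 10 genes in at least 1 clone (a test of the difference itself in edgeR, adjusted over all genes tested). The number of clones out of 25 was 19 for CLB1, 15 for CLB2, 15 for SWI5, 15 for SIC1, 15 for CLN3, 12 for CDC20, 11 for CLB6, 10 for CLB5, 9 for CLN1 and 3 for CLN2. All these comparisons share the 1 resubmitted and the 2 first-set control libraries. The resubmitted control library carries another plasmid name in its library name, and its part in these differences was not tested.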

How the results depend on the processing

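How the library sets were treated moved the counts most. Of the 34 calls against the control, 15 remained without a set term, where the count was 15, and all 34 remained with the first set alone, where it was 163, and with the resubmitted libraries in 2 batches by letter, where it was 75. Without a set term M495-F02 kept 6 of 10 calls, M491-C07 4 of 8, M495-D09 1 of 4 and M491-C06 0 of 6. Against the other groups, where 48 pairs were called, these fits gave 22, 160 and 75. For the mean of the clones, where 0 of the 10 genes were called, the first set alone gave 9 and the 2 batches gave 4, all lower. RLE size factors, no filter, DESeq2 and leaving out M492-E01 kept all 34 calls, with counts of 34 to 41. Leaving out 1 library gave 23 to 55 calls against the control, 43 to 58 against the other groups, 9 to 10 genes among the 26 groups, 8 to 9 between library sets and 0 to 2 for the mean of the clones. The 55 and the 2 came without control replicate 3, and without M491-C07 replicate 3 the mean of the clones gave 1. Of the 34 calls 19 held without each of their own and the control's libraries. No call changed direction under any of these alternatives. With a replicate block in place of the set term, the pairing by number gave the same counts, 34, 48, 9 and 0, and no other call changed. Each clone has 3 libraries, of which 1 is resubmitted, so a resubmitted value has no replicate of its own, and the smallest member, CLB6, had 93 to 335 counts per library.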
